A study of Mus musculus with 6 samples.

Results

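The genes described here mark the choroid plexus, and they were followed in RNA sequencing libraries made from mouse cortex, a tissue that does not contain it. All 8 genes of the set, Ttr, Kl, Clic6, Folr1, Otx2, Sostdc1, Enpp2 and Aqp1, were found by symbol among the 24553 genes and unmatched rows of the deposited table. They were chosen as markers and not by a rule on their values, though earlier results of these data were known. The question is how much RNA of this neighbouring tissue each library held, so each of the 6 libraries is described singly before the groups are compared.

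The choroid plexus is a fringe of epithelium and leaky vessels that hangs in the brain ventricles and secretes cerebrospinal fluid. Its epithelial cells make transthyretin (Ttr) in very large amounts, and they carry the water channel Aqp1 and the folate receptor Folr1 that moves folate into the fluid. Because the tissue is small and its transcripts are abundant, a fragment taken along in dissection can give a brain library a visible Ttr signal.

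The libraries came from the cortex of male mice of the strain C57BL/6J (given as C57BL/6 in another label), aged 15 weeks, at 14 days after stroke. In both groups the drinking water had held 4 antibiotics, Vancomycin, Ampicillin, Neomycin and Metronidazol, sweetened with sucrose at 5%. From 6 to 8 weeks of age, 3 of the mice could drink SCFA (short-chain fatty acids, which gut bacteria make from fibre) for 4 weeks, and the other 3 received the salt-matched control. The sources used here do not give the hemisphere taken, its distance from the lesion or any removal of choroid plexus. Each library was taken as 1 animal, as in the design text.

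Total counts ran from 9275252 to 13862756 per library, of which 35.0% to 55.3% lay in 1 row without a gene symbol. A pair of libraries stood apart. Control 2 had counts in 13600 transcript rows against 15988 to 16941 in the other 5. SCFA 2 held 410.7 CPM (counts per 1000000 counts, with library sizes scaled by edgeR's TMM method) of 12 genes of striatal neurons, against 72.19 to 138.6 CPM elsewhere. The group comparisons of the tested members are therefore also given without these libraries. The cortical identity of the libraries was plain in Slc17a7, the vesicular glutamate transporter gene of cortical excitatory neurons, which measured 662.7 to 966.5 CPM.

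The members had low counts in every library, at most 55 for any 1 gene. Over the 6 libraries they held 425 counts together, and 7 of the 8 had at least 1 count. A total of 3 counts, the upper limit that a count of 0 allows, stood for 0.2063 to 0.3458 CPM depending on the library. By gene, the totals were 135 for Kl, 123 for Enpp2, 103 for Clic6, 43 for Ttr, 13 for Aqp1, 7 for Sostdc1, 1 for Otx2 and 0 for Folr1. These are counts of reads without molecular identifiers, so the intervals and floors given here cover counting error only.

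How the table was built bears on 3 of the members. The table lists reads per RefSeq transcript, and Enpp2, Otx2 and Folr1 have 4 rows each, where the other 5 members have 1. In the transcript models of GENCODE M21 (GRCm38) paired with these rows, the 4 Folr1 rows and 1 row each of Otx2 and Enpp2 had 0 bases that no other row covers, and all 6 of these rows had 0 counts. Across the table, a row with 0 bases of its own within its gene had a count in 11.5% of 6317 cases, a row with 1 to 100 such bases in 32.0% of 2927, and a row with more than 100 in 67.6% of 5907. Of genes with 1 row, 78.7% had a count. The 0 counts of Folr1 were therefore not read as absence of its RNA. Its 4 rows were paired with only 2 models, each shared by 2 rows, so that 0 bases of their own followed from the pairing. The shares over the table include such rows as well. The other 3 rows of Otx2 have 24, 213 and 288 bases of their own, and they had 0, 1 and 0 counts.

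**Figure D1:**
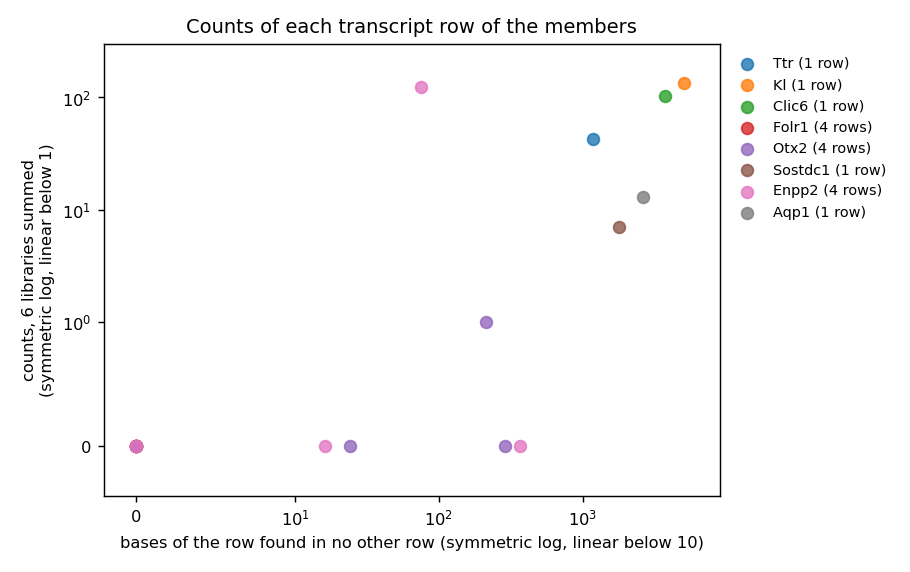
Each point is a transcript row of a member. The horizontal axis gives the bases of the row's model that are found in no other row and the vertical axis its counts summed over the 6 libraries, both on symmetric log scales. The 6 rows with 0 such bases lie on top of each other at 0 counts, and the Enpp2 row with 75 such bases holds 123 counts.

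Enpp2, which encodes autotaxin, the secreted enzyme that makes the signalling lipid lysophosphatidic acid, shows what this means for a measured gene. All of its 123 counts fell in 1 of its 4 rows, the one with 75 bases found in no other row. These bases form exon 20 of 26 in that transcript, on the minus strand at chr15:54851348-54851422 (GRCm38), and they are coding sequence of 25 codons. The exon is printed in capitals between 30 bases of the exons on either side in lower case, because it is the stretch that sets the counted transcript apart. In the other 3 Enpp2 transcripts the flanks are joined directly.

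Enpp2 with exon 20: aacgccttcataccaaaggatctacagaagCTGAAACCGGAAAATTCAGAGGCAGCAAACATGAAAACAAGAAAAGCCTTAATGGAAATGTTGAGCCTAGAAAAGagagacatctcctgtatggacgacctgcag
Enpp2 without it: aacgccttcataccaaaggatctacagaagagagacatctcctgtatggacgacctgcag

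Of the other 3 Enpp2 rows, 1 has 16 bases and 1 has 368 bases of its own, none of them coding, and both had 0 counts. Enpp2 is also expressed by oligodendrocytes, so its counts are not specific to choroid plexus, and the values below refer to the transcript with this exon.

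The secreted thyroxine carrier Ttr, the most abundant transcript of choroid plexus epithelium, was found only in libraries from SCFA-treated mice and at low counts. Controls 1, 2 and 3 had 0 counts each, below limits of 0.2428, 0.3458 and 0.3003 CPM. SCFA 1 had 13 counts (1.36 CPM), SCFA 2 had 28 (1.93 CPM) and SCFA 3 had 2 (0.149 CPM). The groups did not overlap, but SCFA 3 lay below the floor of 3 counts of each library. Among the 18852 genes with at least 1 count, 5.21% had every SCFA library above every control. The SCFA mean of Ttr was 1.14 ± 0.907 CPM (SD, 3 libraries). It was 3.86 times a floor of 3 counts in each control library, 2.54 times without SCFA 2 and 4.21 times without control 2. These ratios take the SCFA mean as observed. They leave out its counting error and the spread between SCFA libraries, and are not lower bounds of the fold change. Ttr has 1 row of 1186 bases. An antisense gene, Gm16090, overlaps its locus on chromosome 18 from 20664209 to 20674326, and the strand setting of the counting is not given in the sources used for this work.

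Ttr did not pass the low-count filter, so it was not tested in the main comparison. It could pass such a filter only through the SCFA group, since all controls were at 0. In edgeR's quasi-likelihood test without a filter it had an unadjusted p of 0.00379 and an adjusted p of 0.364. DESeq2 gave an unadjusted p of 0.00257 and set no adjusted p.

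Kl encodes klotho, a membrane and shed co-receptor for a hormone of the fibroblast growth factor family, made in kidney and choroid plexus and also in some neurons. It had 19, 0 and 26 counts in controls 1 to 3 (1.54, 0 and 2.60 CPM) and 25, 45 and 20 in SCFA 1 to 3 (2.61, 3.09 and 1.49 CPM). The groups overlapped, since SCFA 3 lay below controls 1 and 3, and control 2 stood alone at 0. That library was at 0 for 261 genes that had at least 10 counts in each of the other 5, where the same held for 2 to 13 genes in any other library. The control mean of Kl was 1.38 ± 1.31 CPM and the SCFA mean 2.40 ± 0.824 CPM (SD, 3 libraries each). Its log2 fold change was 0.78 (SE 1.03, edgeR adjusted p = 0.956). It was 0.21 without control 2, 0.56 without SCFA 2, and -0.02 when both were left out.

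Clic6, a chloride intracellular channel gene expressed in choroid plexus and other secretory epithelia, had the widest range in CPM among the members. It had 14, 22 and 6 counts in controls 1 to 3 (1.13, 2.54 and 0.601 CPM) and 0, 55 and 6 in SCFA 1 to 3 (0, 3.78 and 0.447 CPM). Both the highest and the lowest library were thus in the SCFA group. The means were 1.42 ± 0.9996 CPM (controls) and 1.41 ± 2.07 CPM (SCFA; SD, 3 libraries each), and the log2 fold change was 0.02 (SE 1.22, edgeR adjusted p = 0.999). Without SCFA 2 the log2 fold change was -2.53 (edgeR adjusted p = 1.0), and without control 2 it was 0.71.

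The exon 20 transcript of Enpp2 had 35, 3 and 15 counts in controls 1 to 3 (2.83, 0.346 and 1.502 CPM) and 9, 31 and 30 in SCFA 1 to 3 (0.940, 2.13 and 2.23 CPM). Control 1 was highest and control 2 lowest, so all SCFA libraries lay within the range of the controls. The means were 1.56 ± 1.25 CPM and 1.77 ± 0.719 CPM (SD, 3 libraries each). The log2 fold change was 0.17 (SE 0.903, edgeR adjusted p = 0.986), and it was -0.29 without control 2, 0.03 without SCFA 2 and 0.93 without control 1. Oligodendrocyte genes, 13 of 14 with counts and led by Ermn and Cldn11, summed to 242.9 to 331.8 CPM in controls and 264.1 to 312.1 CPM with SCFA, and control 1 was the highest library in this list too. Their part in the Enpp2 counts was not tested.

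The remaining members were seen in 1 or 2 libraries. Aqp1 had 11 counts in control 3 (1.10 CPM), 2 in SCFA 2 (0.138 CPM) and 0 in the other 4. Sostdc1, a secreted antagonist of bone morphogenetic protein and Wnt signalling, had 7 counts in control 1 (0.567 CPM) and 0 in each other library. The homeobox gene Otx2, the transcription factor that maintains choroid plexus identity, had its 1 count in control 1 as well. All 3 controls were at 0 for Ttr, also control 2, which had no counts of Aqp1 or Sostdc1.

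**Figure D2:**
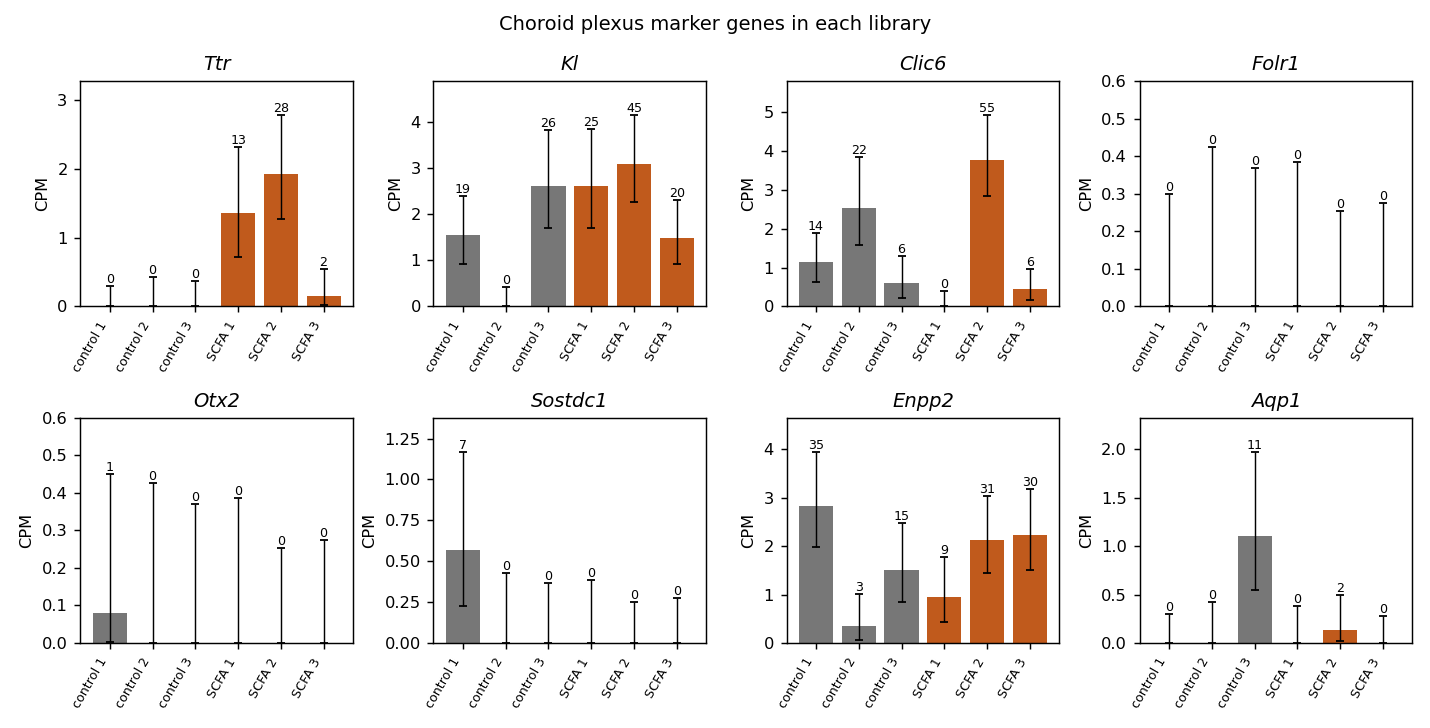
Bars give CPM (vertical axes, scaled per gene) in controls (grey) and SCFA-treated mice (orange) for each of the 8 members. Error bars are exact 95% Poisson intervals for counting error, and the number above each bar is the raw count. Ttr has counts in the 3 SCFA libraries only, Clic6 is highest in SCFA 2 at 3.78 CPM and Folr1 is at 0 throughout.

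Per kilobase of transcript, which allows genes to be set side by side, the 5 members with 1 row had mean levels over the 6 libraries of 0.482 CPM per kilobase for Ttr, 0.377 for Clic6, 0.369 for Kl, 0.0786 for Aqp1 and 0.0530 for Sostdc1. The first 3 differed from each other by less than their spread over libraries. On the same scale Slc17a7 had a mean of 289 CPM per kilobase. In SCFA 2, the library with the highest levels, Ttr reached 1.62, Clic6 1.01 and Kl 0.605 CPM per kilobase.

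Library by library, the members made up a very small share of the counts. Control 1 had counts for 5 of the 8 members, 76 in all, or 6.91 unscaled CPM, which takes the plain total count as library size (exact binomial 95% interval 5.45 to 8.65). Enpp2 gave 46.1% of them and Ttr none. Control 2 had 25 counts from 2 members, 2.19 unscaled CPM (1.42 to 3.24), and Clic6 gave 88.0% of these. Control 3 had 58 counts from 4 members, 5.58 unscaled CPM (4.24 to 7.21), with Kl at 44.8% and Aqp1 at 19.0%.

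The SCFA libraries differed as much among themselves. SCFA 1 had 47 counts from 3 members, 5.07 unscaled CPM (3.72 to 6.74), of which Kl gave 53.2% and Ttr 27.7%. SCFA 2 had 161 counts from 5 members, 13.5 unscaled CPM (11.5 to 15.7), an interval above that of each other library. SCFA 3 had 58 counts from 4 members, 4.18 unscaled CPM (3.18 to 5.41), and Enpp2 gave 51.7% of them.

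Scaled by TMM, the summed members measured 11.1 CPM in SCFA 2 and 2.88 CPM in control 2, the highest and lowest libraries, a ratio of 3.84 (counting interval 2.51 to 6.11). With plain total counts the ratio was 6.14. Against the other 4 libraries the ratio of SCFA 2 lay between 1.799 and 2.56, and the lower bounds of the intervals lay between 1.36 and 1.89. The members in SCFA 2 were Clic6 (55 counts), Kl (45), Enpp2 (31), Ttr (28) and Aqp1 (2). Ttr, Kl and Clic6 had their highest CPM in this library, 3 of the 7 members with counts, where 19.0% of all 18852 genes with counts did.

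**Figure D3:**
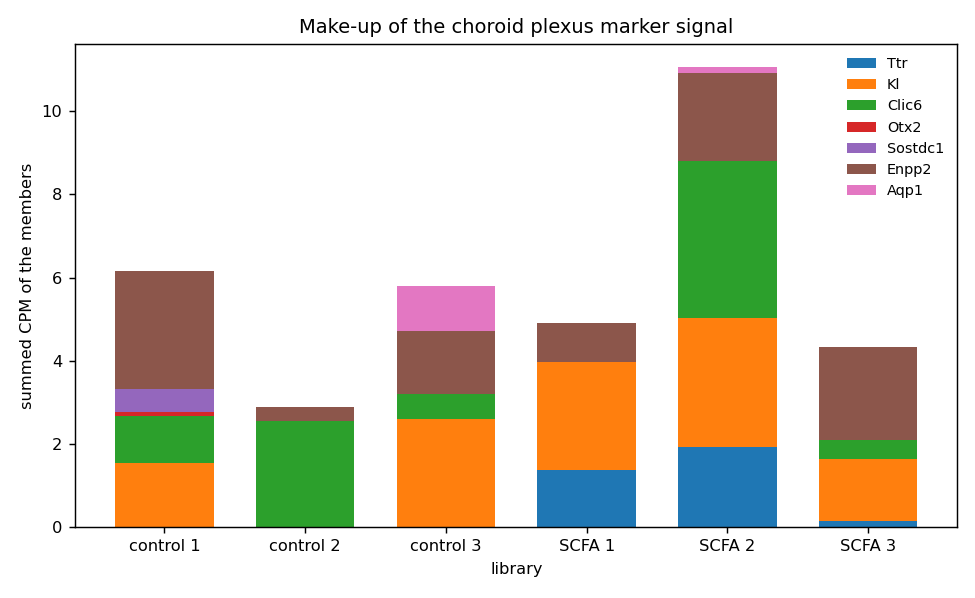
Stacked bars give the CPM of each member (colours) in each of the 6 libraries, summed on the vertical axis. SCFA 2 reaches 11.1 CPM and control 2 reaches 2.88 CPM. The blue segment of Ttr is present in the SCFA libraries alone, and the make-up differs from library to library.

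The proportions of the members to each other differed between libraries. Of the summed counts of Ttr and Kl, Ttr gave 34.2% in SCFA 1 (exact binomial 95% interval 19.6 to 51.4) and 38.4% in SCFA 2 (27.2 to 50.5), against 0% in control 3 (upper bound 13.2). In SCFA 3 it gave 9.09% (1.12 to 29.2), an interval that overlaps all 3 of these. Of the Clic6 and Kl counts, Clic6 gave 55.0% in SCFA 2 (44.7 to 65.0) and 0% in SCFA 1 (upper bound 13.7), where Kl had 25 counts. In control 2 the same share was 100% (lower bound 84.6), with 22 counts of Clic6 and none of Kl. The interval of control 3 for Ttr lay below those of SCFA 1 and SCFA 2, and the 3 intervals given for Clic6 did not overlap. These 3 are the extremes and SCFA 2. Clic6 gave 42.4% in control 1 (25.5 to 60.8), 18.75% in control 3 (7.21 to 36.4) and 23.1% in SCFA 3 (8.97 to 43.65), intervals that overlap each other. The share in control 2 rests on the 0 of Kl there, in the library that was at 0 for 261 genes with at least 10 counts in each other library.

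Between treatments, 3 of the 8 members (Kl, Clic6 and Enpp2) had enough counts to be tested, and in edgeR's quasi-likelihood test with Benjamini-Hochberg adjustment over all 11969 genes 0 rose and 0 fell with SCFA at an adjusted p under 0.05. Over all genes tested, 0.00835% rose and 0.0752% fell, and those that fell were all in the exocrine pancreas list described below. At an unadjusted p under 0.05 the count was 0 of 3 members, against 5.76% of all genes, and DESeq2 and limma-voom called 0 of the 3 as well. The median log2 fold change was 0.17 over the 3 members and 0.01 over all genes tested. The sum of the members was 4.95 ± 1.797 CPM over the controls and 6.77 ± 3.74 CPM over the SCFA libraries (SD, 3 libraries each), a ratio of 1.37 that became 1.13 without control 2, 0.933 without SCFA 2 and 0.772 without both. In bulk tissue, more cells of a type and more RNA per cell cannot be told apart.

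A wider list of 34 other genes used as choroid plexus markers, of which 33 were in the table and 29 had counts, did not separate the libraries. It summed to 101.8 to 118.2 CPM in controls and 102.1 to 111.4 CPM with SCFA. Of its 14 tested genes 0 rose and 0 fell (edgeR), and the median log2 fold change was -0.02. Several of its largest totals belonged to genes that other brain cells also express. The 8 genes with the highest totals were Cab39l (1588 counts), the sulfate transporter gene Slc13a4 (1488), the serotonin receptor gene Htr2c (1067), the collagen genes Col8a1 (563) and Col8a2 (476), the potassium channel gene Kcnj13 (434), Ecrg4 (353) and Abca4 (302). Of these, only Htr2c had its highest CPM in SCFA 2, with 331 counts against 79 to 181 in the other libraries.

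Other genes of this list were at or near 0, or were high in 1 library, and those that follow were named after their values were seen. Calml4, Lmx1a, Car12 and Mfrp had 0 counts in all 6 libraries, and of these Lmx1a has 1 row and the others 2. The potassium channel subunit gene Kcne2 had 2 counts, both in SCFA 3, and the tight junction gene Cldn2 had 10, all in controls. Tmem72 and Trpv4 were highest in SCFA 2, as Clic6 was. Of the 29 genes of the list with counts, 6 had their highest CPM in SCFA 2, where 19.0% of all genes with counts did. The others peaked elsewhere, such as Prlr and Igf2 in control 3 and Msx1 in control 2. Tmem72 had 12 of its 13 counts in SCFA 2 and the other in SCFA 3. The cation channel gene Trpv4 had 50 counts in SCFA 2 (3.44 CPM) against 4 to 18 (0.324 to 1.802 CPM) elsewhere.

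Genes of the tissues around the ventricle varied differently from library to library. Ependymal genes, of the ciliated cells that line the ventricle wall, were all detected (16 of 16) and summed to 23.15 to 38.03 CPM in controls and 14.94 to 23.22 CPM with SCFA. Control 2 was highest in this list while it was lowest for the choroid plexus members. The ependymal motor protein gene Dnah5 had 120, 48 and 103 counts in controls and 53, 104 and 61 with SCFA, and Rarres2 had 100 counts in control 2 against 8 to 38 elsewhere. In control 2, Rarres2 alone gave 11.53 of the 38.03 CPM, and 10 of the 16 genes had counts. Dnah5 was at 5.532 CPM there, against 9.713 and 10.31 CPM in controls 1 and 3. Of 8 tested ependymal genes 0 rose and 0 fell (edgeR), with a median log2 fold change of -0.45. Genes of the meninges and of the plexus stroma (15 of 15 detected) were highest in control 3 at 2375 CPM, the library that held 11 of the 13 Aqp1 counts, and lay between 1237 and 1487 CPM in the others. Ptgds alone gave 806.7 to 1068 CPM of these sums, depending on the library. Col1a1 had 7089 counts in control 3 and 745 to 2035 in the others.

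Striatal genes stood out in the same library as the choroid plexus members. The list of 13 genes, of which 12 were in the table and had counts, summed to 4.90 times the median of the other 5 libraries in SCFA 2, where the choroid plexus members summed to 2.25 times theirs. Of its 12 genes 10 had their highest CPM there. The neuropeptide gene Penk had 1895 counts in SCFA 2 against 242 to 360 elsewhere. Hippocampal and thalamic genes were at 1.42 and 1.41 times the median of the others in SCFA 2, and cortical excitatory genes at 1.06 times. Of the 10 hippocampal genes only 1, Wfs1, had its highest CPM in SCFA 2, with 794 counts against 158 to 447 elsewhere. Of the 8 thalamic genes with counts, 3 were highest there. SCFA 1, with 13 counts of Ttr, had the lowest striatal sum at 72.19 CPM. The part of striatal or periventricular tissue in the choroid plexus counts was not tested.

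**Figure D4:**
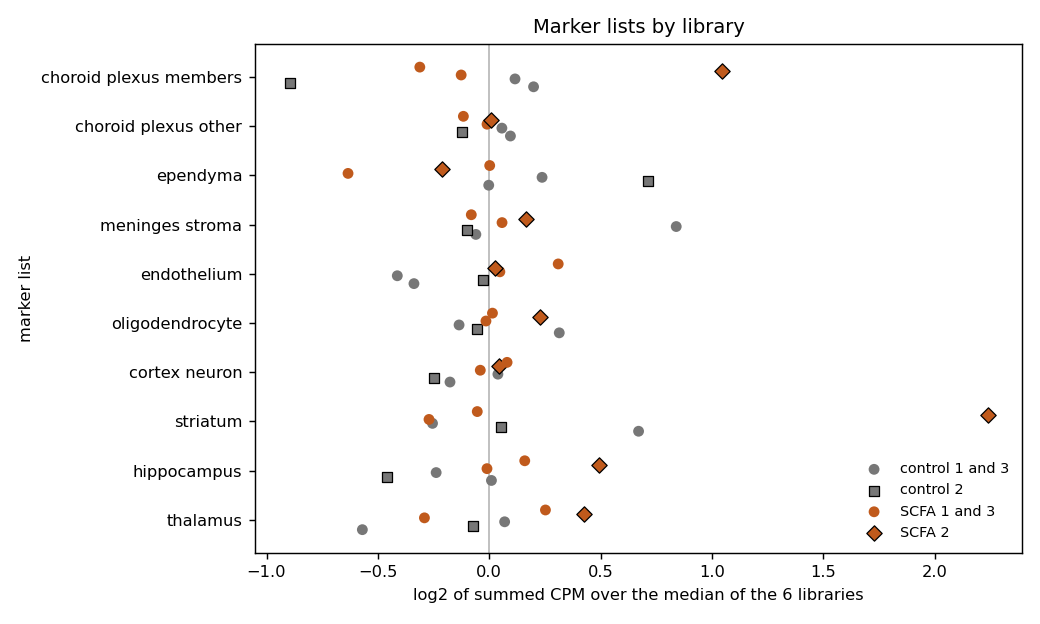
Each point is a library. The horizontal axis gives the log2 of a marker list's summed CPM over its median in the 6 libraries, and the rows are lists of marker genes. SCFA 2 (diamonds) lies furthest right for the choroid plexus members and for the striatal list, and control 2 (squares) lies furthest left for the members and furthest right for ependyma.

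Other tissues share some of these genes, and their own markers were listed beside them. Liver and pancreatic islets also make Ttr. Among 12 liver genes, 7 were at 0 in all libraries, Alb among the others had 1 count each in SCFA 1 and SCFA 3, and the list summed to 0.0744 to 0.731 CPM with SCFA. In controls it reached 13.4 CPM, where Apoa1 had 154 counts in control 1 and 0 in each other library. Of 8 islet genes, Ins1, Ins2, Ppy, Slc30a8 and G6pc2 were at 0 in all libraries, and Gcg had 2 counts, both in control 1. Chga, which neurons also express, made up nearly all of that list, with 1270 counts in SCFA 2 and 368 to 696 elsewhere, and the list was at 1.90 times the median of the other libraries in SCFA 2. Exocrine pancreas genes, a list chosen with its high level in controls already known, summed to 44.05 to 414.2 CPM in controls and 1.03 to 3.03 CPM with SCFA. Of its 13 tested genes 9 fell with SCFA (edgeR), and these were all the genes that fell among the 11969 tested. Since the list was chosen for this pattern, these sums and calls are a description. Amy2a5 and Pnlip led this list. Ttr was at 0 in all controls, so its 0 counts where this list was high follow from how the list was chosen.

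Kidney shares Kl, Aqp1, Folr1 and Sostdc1. Of 10 kidney genes 5 were at 0 throughout, Aqp2 and Umod among them, and the podocyte gene Nphs1 was the most abundant with 114 counts in all. The kidney list summed to 1.20 to 5.19 CPM in controls and 1.64 to 4.54 CPM with SCFA, and in SCFA 2 it was at 2.17 times the median of the other libraries, where the choroid plexus members were at 2.25 times. Its part in the members' counts was not tested. Red blood cells carry Aqp1, and of 8 red cell genes the 4 globin genes were at 0 in all libraries and Slc4a1 led with 49 counts. In SCFA 2 that list was at 0.515 times the median of the other libraries. Of 8 genes of the retinal pigment epithelium, which shares Ttr, Otx2 and Clic6, Rpe65 had 198 counts and Best1 had 81, and SCFA 2 was at 0.588 times the median of the other libraries. Endothelial genes, led by Slco1a4 and Itm2a, were at 1.04 times that median in SCFA 2. In none of the kidney, red cell, retinal and endothelial lists did a gene pass the test of SCFA against control (edgeR, 0 of 8 tested genes).

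Kl, the member with the highest total, was used to look for genes with a like pattern, since Ttr had not passed the filter. Likeness was measured as the root mean square difference between log2 CPM profiles centred on their mean over the 6 libraries. The 5 nearest genes were Zfp511 (0.190), Fbrsl1 (0.201), Gm16894 (0.207), Timm9 (0.212) and Prr18 (0.213), where the median over all other genes tested was 1.47. All 5 were at 0 to 3 counts in control 2 and at 18 or more in each of the other libraries, as Kl was at 0 and at 19 or more. Control 2 was the lowest library for Kl and for each of these 5 genes.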

How the data were processed

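RNA was measured in 6 cortex libraries, 3 per group. The deposited table holds raw counts of reads per RefSeq transcript, made by the authors with CASAVA 1.8.2 and featureCounts on the build mm10, per the submitters' processing notes. The aligner, the strand setting and the handling of shared reads are not stated in the sources used. Libraries were prepared from snap-frozen cortex with RNeasy columns and an Ovation kit for human FFPE RNA, per the labels' protocols. Of 34755 rows, 34424 (99.05%) were matched to symbols through RefSeq (GRCm38.p6, the assembly of mm10), and rows of a symbol were summed.

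The test was that of edgeR 4.0.16 (R 4.3.3): filterByExpr (minimum count 10, minimum total 15), TMM scaling, a quasi-likelihood F test of SCFA against control without covariates, two-sided, Benjamini-Hochberg adjustment over all genes tested and a threshold of 0.05. Standard errors of log2 fold changes were taken as the absolute change over the root of F. The scripts were tested on simulated data. Log2 CPM profiles used a prior count of 2. Transcript lengths, exons and the printed Enpp2 sequence came from GENCODE M21 by RefSeq accession, whose models may differ from those the authors counted on. That each library is 1 animal rests on the design text alone. The p-values of edgeR set the group difference against the spread between these libraries, estimated with information shared across genes.

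Named genes were the 8 members, the 8 genes with the highest total count of the wider choroid plexus list and the 2 highest of each other list, and the 5 genes nearest to the profile of Ttr or, where it failed the filter, of the member with the highest total. Some genes that this rule names are not reported here. The members and lists were chosen with earlier results of these data known. Alternatives were DESeq2 size factors, total counts and upper-quartile scaling, a filter at a CPM above 1 in 3 libraries and none at all, the DESeq2 1.42.0 test, limma-voom (limma 3.58.1), structural RNA removed, unsummed rows, the replicate number as a block and each library left out. Leaving out control 2 and SCFA 2 together, and the ratios of Ttr to the floor without each library, were chosen after seeing the data.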

Additional observations from a re-analysis of the deposited data

How the results depend on the processing

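No member passed the test of SCFA against control under any of the 17 alternatives run, and in each direction the count of members called was 0 (3 members tested in the main comparison, at most 7 without a filter). The log2 fold change of Clic6 turned from 0.02 to -0.01 with DESeq2, to -1.02 with limma-voom and to -1.0 with the replicate block, and ran from -2.53 to 0.71 when 1 library was left out (it was below 0 without control 1, control 3 or SCFA 2). That of Enpp2 ran from -0.29 to 0.93 with 1 library left out and was -0.44 without control 2 and SCFA 2, and that of Kl ran from 0.21 to 1.59, was -0.02 without both, 1.67 with limma-voom and 1.28 with the replicate block. Clic6 did not pass the filter without both. The cause was not tested. The ratio of the summed members between the highest and the lowest library was 6.14 with total counts in place of TMM and 3.17 to 4.29 under the other 5 alternatives. SCFA 2 was highest in all 6, and control 2 was lowest in all but the sum without Enpp2, where SCFA 3 was.

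Over all genes, 1 rose and 9 fell with SCFA. The 9 that fell were all in the exocrine pancreas list, which was chosen with its high level in controls known. Without a filter 30 rose and 25 fell, with DESeq2 16 and 21, and when 1 library was left out 0 to 8 and 0 to 13. In limma-voom 0 rose and 0 fell, where 421 and 384 had an unadjusted p under 0.05. With the replicate number as a block 10 rose and 12 fell, and without control 2 and SCFA 2 together 14 rose and 11 fell. Libraries of the same number did not deviate together (correlations -0.00206, 0.0101 and -0.00525), and 1 of the 3 controls correlated best with its own number, so the numbers were not taken as pairs. At these depths 3 counts stand for up to 0.3458 CPM, and Sostdc1 and Aqp1 had too few counts to be tested. Folr1 and Otx2 are limited by the rows of the table as well.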
